A study of Mus musculus with 6 samples.

Results

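The genes described here fold procollagen in the endoplasmic reticulum (ER) and trim its propeptides outside the cell, as measured in sorted osteoblasts (OBs) of BMP-2-induced ectopic bone. Members were the 10 gene symbols of a list by role (*P4ha1*, *P4ha2*, *P4ha3*, *P4hb*, *Serpinh1*, *Crtap*, *Ppib*, *Fkbp10*, *Bmp1* and *Pcolce*), and all 10 were present among the 23284 genes of every file. RNA-sequencing values came from ECFP+ OBs of *Col2.3*-ECFP mice, in which a fragment of the type I collagen promoter drives a cyan fluorescent protein, 10 days (n = 3) or 14 days (n = 3) after implantation. The mice were males of 12 to 16 weeks, and all 6 samples came from collagen sponges loaded with 2.5 μg of BMP-2, with no untreated bone in the series. The sort left out CD45+ and dead cells. Day 10 bone had 1 collagenase digestion and day 14 bone had 2, so digestion and day cannot be told apart. Because the reporter is itself driven by a type I collagen promoter, the sort selects cells with activity of that promoter on either day. The labels call the samples biological replicates without saying whether mice were pooled.

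Procollagen chains enter the ER as they are made. Prolyl 4-hydroxylase, a tetramer of α subunits (*P4ha1*, *P4ha2* or *P4ha3*) and the β subunit protein disulfide isomerase (*P4hb*), hydroxylates their prolines, which gives the triple helix its stability at body temperature. A complex of cartilage-associated protein (*Crtap*), prolyl 3-hydroxylase and cyclophilin B (*Ppib*) modifies a few further prolines and turns proline bonds. FKBP65 (*Fkbp10*) and the collagen-specific chaperone HSP47 (*Serpinh1*) attend the folding and folded molecule. After secretion, the metalloproteinase encoded by *Bmp1* removes the C-propeptide, aided by the procollagen C-proteinase enhancer encoded by *Pcolce*, and fibrils can then form. Loss of several of these genes causes brittle bone disease (osteogenesis imperfecta), and OBs, which secrete type I collagen in bulk, depend on the pathway heavily.

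Values are FPKM, a fragment count scaled to transcript length and to the size of the library, so levels can be set side by side between genes only approximately. The transcript lengths used in the scaling are not given in the sources used here. Effects of the cDNA amplification that differ by gene were not tested. The depth estimated from the steps of the low FPKM values was between 4529503 and 7757129 mapped reads per sample. At that depth every member rested on at least 650 estimated reads in every sample, and these figures cover counting error only. All 7 OB markers were above 0 in each sample, with *Col1a1* between 14151 and 34157 FPKM, and they summed to between 28368 and 54192 FPKM on day 10 and 15669 and 38269 FPKM on day 14. Several OB markers were lowest in day 14 replicates 1 and 3. *Sp7*, a transcription factor that OBs require, measured 73.7, 51.1 and 40.1 FPKM in the day 10 samples against 9.79, 27.9 and 4.09 FPKM in day 14 replicates 1, 2 and 3. *Alpl*, the alkaline phosphatase of mineralizing cells, measured 1129, 1055 and 809 FPKM in the day 10 samples against 273, 1299.8 and 186 FPKM on day 14. *Ibsp*, which encodes bone sialoprotein, measured 25254, 15910 and 10072 FPKM in the day 10 samples against 3460, 15632 and 1293 FPKM on day 14. Day 14 replicate 2 thus lay above the day 10 samples for *Alpl* and within their range for *Ibsp*. For *Sp7* it lay between them and the other day 14 samples. It stood apart in other cell types as well. Its 12 chondrocyte markers summed to 1109 FPKM, against 117 and 74.1 FPKM in day 14 replicates 1 and 3 and 432 to 865 FPKM on day 10. *Col2a1* alone was at 688 FPKM in day 14 replicate 2, against 189 to 373 FPKM on day 10. *Acan*, *Sox9*, *Matn3*, *Hapln1* and *Col10a1* were also above every day 10 sample, and the other chondrocyte markers lay within the day 10 range. The 8 myeloid markers of day 14 replicate 2 summed to 11.5 FPKM, against 230 and 549 FPKM in the other day 14 samples and 31.1 to 134 FPKM on day 10. *Ptprc*, which encodes CD45, was at most 2.99 FPKM in any sample. Endothelial, skeletal muscle and adipocyte markers summed to at most 6.03, 9.06 and 30.8 FPKM per sample. The log2 fold changes of the members are therefore also given without day 14 replicate 2. The day 14 samples that remain, replicates 1 and 3, had the lowest *Sp7*, *Alpl* and *Ibsp* and the highest myeloid sums of all samples. Values without replicate 2 are thus not corrected for cell type. The part of the OB markers and of these other cell types in the fold changes was not tested. In such bulk samples, fewer cells of a type and less RNA per cell cannot be told apart.

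All 10 genes were expressed at high levels. On day 10 the order by mean was *Serpinh1*, *P4hb*, *Pcolce*, *Fkbp10*, *Ppib*, *Bmp1*, *Crtap*, *P4ha2*, *P4ha1* and *P4ha3*. *Serpinh1* ranked 25 and *P4hb* 37 among the 23284 genes, and even the lowest, *P4ha3*, ranked 682. In this order the day 10 samples overlapped between *Serpinh1* and *P4hb*, *P4hb* and *Pcolce*, *Fkbp10* and *Ppib*, and *Crtap* and *P4ha2*, and the other neighbours did not overlap. On day 14 *Ppib* stood above *Fkbp10*, and *P4ha3* stood above *P4ha1*. *Ppib* and *Fkbp10* overlapped on both days, whereas *P4ha3* and *P4ha1* stood in opposite order on the days, without overlap on either.

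Between the days, 9 of the 10 genes had a lower mean on day 14 and 1, *P4ha3*, had a higher mean. Of the 19526 genes tested, 10441 had a log2 fold change below 0 and 9085 above 0. In 5 genes (*P4ha1*, *P4ha2*, *P4hb*, *Serpinh1* and *Pcolce*) the highest day 14 value was below the lowest day 10 value, as in 6.67% of the 19526 genes tested. In *P4ha3* the lowest day 14 value was above the highest day 10 value, as in 7.59% of the genes tested. Among the 549 genes with a mean FPKM at least as high as the lowest member, a background chosen after the values were seen, these shares were 11.8% and 23.5%. No member had an adjusted p under 0.05 from limma on log2(FPKM + 0.1), a threshold passed by 0.0154% of the genes tested. At an unadjusted p under 0.05, 3 members were lower on day 14 (*P4ha1*, *P4ha2* and *Fkbp10*), against 4.4% of all genes tested and 6.92% of the 549 highly expressed genes. At the same threshold *P4ha3* was higher, against 5.6% and 22.8%. The median log2 fold change (day 14 over day 10) was −0.26 over the members, −0.04 over all genes tested and 0.12 over the 549 genes. The members ran from −0.77 (*Fkbp10*) to 0.86 (*P4ha3*). Below, ± after a log2 fold change is its standard error from limma, and adjusted p is from the same fit.

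**Figure D1:**
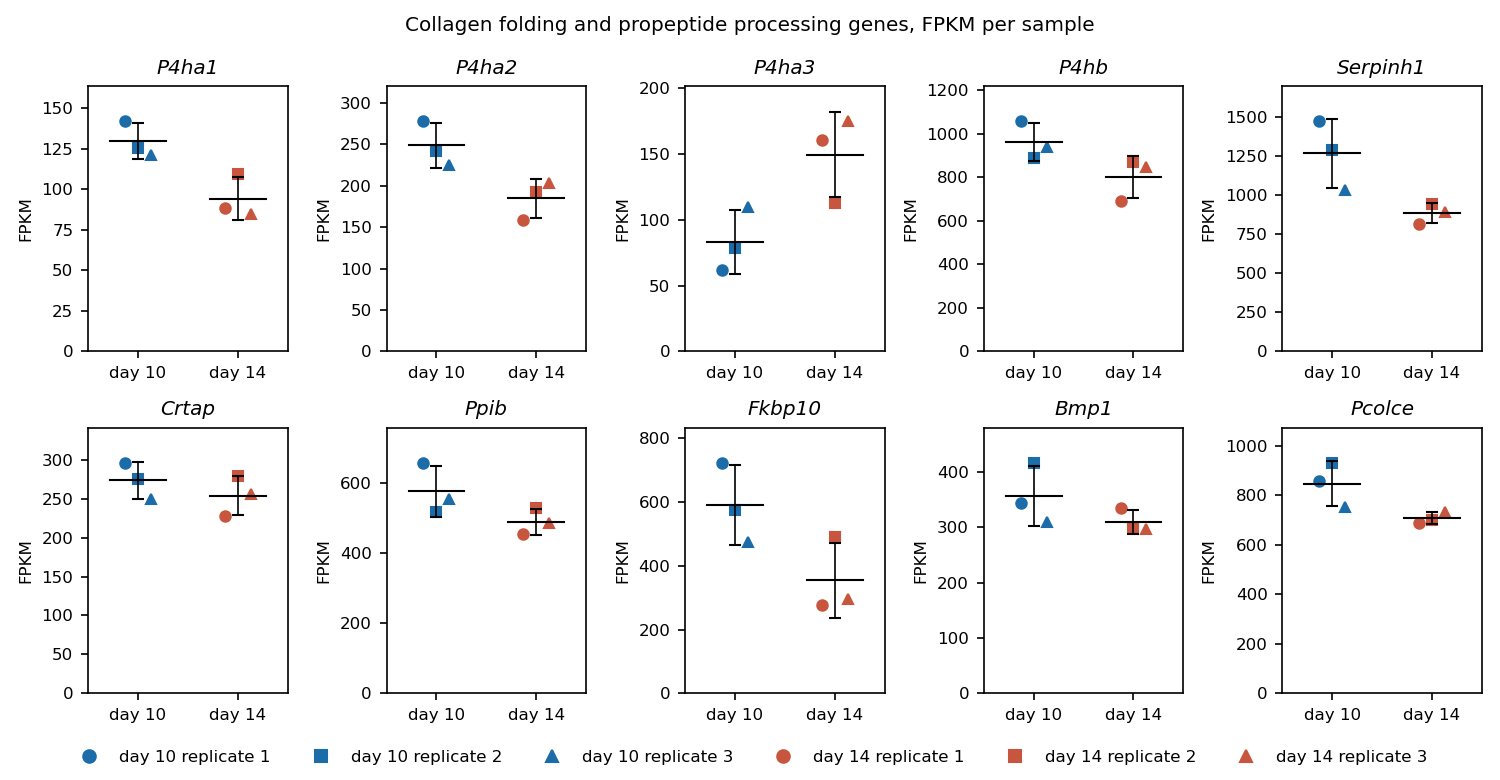
FPKM (linear axis from 0) of each of the 10 genes in the 3 day 10 samples (blue) and 3 day 14 samples (red), with marker shape for the replicate number, a line at the mean and bars of 1 SD. P4ha3 sits between 61.9 and 109.9 FPKM on day 10 and between 113 and 175 FPKM on day 14, whereas the other 9 genes have lower means on day 14.

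Without day 14 replicate 2, the days were separated downwards in 7 members, with *Ppib* and *Fkbp10* added, and upwards in *P4ha3*. With this sample left out, 13.3% of all genes tested were separated downwards and 15.4% upwards. Among the 549 highly expressed genes the shares were then 25% and 30.6%. The number of members with an unadjusted p under 0.05 was 4 of 10 with all samples, against 10% of all genes tested in either direction. It was 3 without day 14 replicate 2, against 12.8% of all genes. It was 1 without day 10 replicate 1 (4.86% of all genes) and also 1 without day 14 replicate 1 (13.7%). It was 2 without day 10 replicate 2 (7.12%) or day 14 replicate 3 (7%), and 4 without day 10 replicate 3 (9.97%). By sample, day 10 replicate 1 was the highest of the 6 for 7 members, and day 14 replicate 1 the lowest for 7 members. Within day 14, replicate 2 was the highest for 6 members and the lowest for *P4ha3*. On the log2 scale it lay nearer to the day 10 mean than to the other day 14 samples in 6 of the 10 members.

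The α subunits of prolyl 4-hydroxylase differed in direction. *P4ha1*, on chromosome 10 from 59323296 to 59373304 of mm10, encodes the widely expressed catalytic subunit. It measured 142, 125 and 121 FPKM in day 10 replicates 1, 2 and 3 and 88.2, 109 and 84.7 FPKM in day 14 replicates 1, 2 and 3. The highest day 14 value was thus below the lowest day 10 value. The mean was 129.6 ± 11.1 on day 10 and 94.1 ± 13.3 FPKM on day 14 (SD, n = 3 each), and the fit on the log2 scale gave a 1.38-fold lower level (log2 fold change −0.47 ± 0.16, limma adjusted p = 0.398). *P4ha2*, on chromosome 11 from 54100095 to 54131665, encodes a second catalytic subunit with a place in cartilage and bone. It measured 278, 242 and 225 FPKM on day 10 and 158, 193 and 204 FPKM on day 14. These groups did not overlap either, and the log2 fold change was −0.43 ± 0.17 (limma adjusted p = 0.462). Without day 14 replicate 2 the log2 fold changes were −0.58 for *P4ha1* and −0.46 for *P4ha2*.

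*P4ha3*, on chromosome 7 from 100285520 to 100319699, encodes the α subunit that was described last and is scarcer in most tissues. It measured 61.9, 78.2 and 109.9 FPKM in day 10 replicates 1, 2 and 3, and 160.4, 113 and 175 FPKM in day 14 replicates 1, 2 and 3. The days did not overlap, although day 10 replicate 3 and day 14 replicate 2 lay close together. The mean was 83.3 ± 24.4 on day 10 and 149.6 ± 32.6 FPKM on day 14 (SD, n = 3 each). The fit on the log2 scale gave a 1.81-fold higher level, or 0.86 ± 0.25 in log2 fold change (limma adjusted p = 0.340). The two-sided exact permutation test gave p = 0.1 for each of the 3 α genes, the smallest p that 3 samples against 3 allow. Without day 14 replicate 2 the log2 fold change of *P4ha3* was 1.05 (limma adjusted p = 0.191), and without day 10 replicate 1 it was 0.66. Over the 14 alternative settings its limma adjusted p ran from 0.191 to 0.976. Within day 14, *P4ha3* and the myeloid marker sum had the same order over the samples. On day 10 the highest *P4ha3* fell in replicate 3 and the highest myeloid sum in replicate 2. *Lyz2*, the highest of the myeloid markers, had the order of *P4ha3* within both days, at 18.5, 71.9 and 83.3 FPKM on day 10. The other myeloid markers were highest in replicate 2 on that day. Across all samples *Sp7* had exactly the reverse order of *P4ha3*, which held for no other OB marker. The part of these markers in the result was not tested.

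The promoters of the 3 α genes are shown because these subunits of the same enzyme differed in direction. Each is the run of 250 bases before the RefSeq transcription start, on the plus strand of GRCm38.p6, the assembly of mm10. For *P4ha2* the RefSeq start lies inside the GENCODE gene span given above. Capitals mark matches, on either strand, to GGGCGG (a GC box), ACGTG and GCGTG (core letters of sites that hypoxia-inducible factors can bind).
*P4ha1* (chr10:59323046-59323295): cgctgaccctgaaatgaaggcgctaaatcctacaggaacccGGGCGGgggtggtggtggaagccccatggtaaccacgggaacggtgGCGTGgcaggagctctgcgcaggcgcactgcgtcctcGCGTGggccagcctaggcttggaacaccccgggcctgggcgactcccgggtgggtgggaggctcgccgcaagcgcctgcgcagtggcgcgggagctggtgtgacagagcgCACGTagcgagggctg
*P4ha2* (chr11:54100674-54100923): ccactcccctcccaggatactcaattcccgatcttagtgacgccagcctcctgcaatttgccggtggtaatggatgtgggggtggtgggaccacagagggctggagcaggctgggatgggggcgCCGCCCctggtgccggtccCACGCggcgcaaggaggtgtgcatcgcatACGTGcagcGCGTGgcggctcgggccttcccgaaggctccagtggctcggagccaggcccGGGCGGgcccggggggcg
*P4ha3* (chr7:100285270-100285519): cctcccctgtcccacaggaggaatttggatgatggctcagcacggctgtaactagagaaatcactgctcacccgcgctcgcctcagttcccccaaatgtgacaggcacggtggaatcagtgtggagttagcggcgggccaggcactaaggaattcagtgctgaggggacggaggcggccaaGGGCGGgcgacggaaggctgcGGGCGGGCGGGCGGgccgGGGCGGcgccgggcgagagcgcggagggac

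The windows of *P4ha1* and *P4ha2* each held 1 match to ACGTG and 2 to GCGTG, whereas that of *P4ha3* held neither. The window of *P4ha3* held 5 matches to GGGCGG, of which 3 overlap their neighbour, against 1 in *P4ha1* and 2 in *P4ha2*. Of 32851 RefSeq windows of the same length, 16.6% held ACGTG, 28.2% GCGTG and 32.7% GGGCGG. A window was given for 8 members, all except *Fkbp10* and *Bmp1*, and of these 8 windows 5 held ACGTG, 6 GCGTG and 7 GGGCGG. The letters TATAAA and CCAAT, searched on both strands in the same way, were in 1 and 2 of the 8 windows (12.4% and 33.8% of all windows). TGACGT and GAANNTTC were in none of the 8 (6.47% and 6.69% of all windows). These are matches of letters only.

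Because the 3 α genes were counted within the same sample, their shares do not depend on scaling between samples. *P4ha3* made up 12.8%, 17.6% and 24.1% of the summed α FPKM in day 10 replicates 1, 2 and 3 and 39.4%, 27.2% and 37.8% in day 14 replicates 1, 2 and 3. The share was higher in every day 14 sample, and in day 14 replicate 1 *P4ha3* exceeded *P4ha2*. The mean share was 18.2% ± 5.67 on day 10 and 34.8% ± 6.64 on day 14 (SD, n = 3 each; two-sided exact permutation test, p = 0.1, chosen after the values were seen). The share of *P4ha1* was 28.1% ± 1.45 on day 10 and 22.1% ± 4.05 on day 14 (SD, n = 3 each; two-sided exact permutation test, p = 0.1), and no day 14 sample reached the lowest day 10 sample, although day 14 replicate 2 (26.3%) lay close to day 10 replicate 3 (26.6%). Leaving out day 14 replicate 2, the day 14 share exceeded that of day 10 by 20.5 percentage points for *P4ha3*, and the difference for *P4ha1* was −8.09. The share of *P4ha2* was 53.8% ± 4.22 on day 10 and 43.1% ± 3.84 on day 14 (SD, n = 3 each), also without overlap. Because the shares of a sample sum to the whole, a higher *P4ha3* share lowers the others, so these are not separate results. The ratio of *P4ha2* to *P4ha1* FPKM was 1.91 ± 0.0525 on day 10 and 1.99 ± 0.360 on day 14, with overlapping samples. *P4ha2* had the largest share in 5 of the 6 samples. The summed α FPKM overlapped between the days, at 461 ± 19.04 on day 10 and 429 ± 30.6 on day 14 (SD, n = 3 each).

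**Figure D2:**
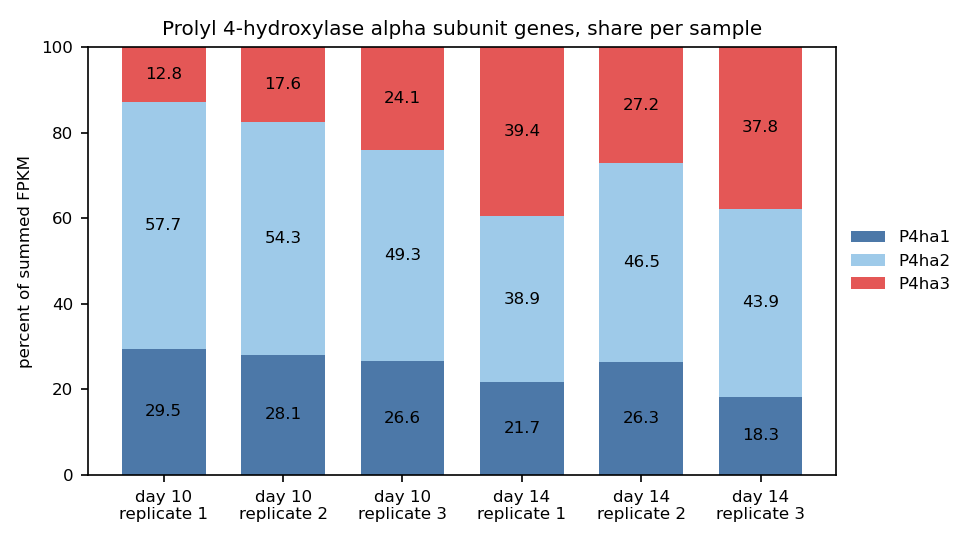
Share of P4ha1, P4ha2 and P4ha3 in their summed FPKM, as stacked bars in percent, for each of the 6 samples with no error bars, since each bar is a single sample. The P4ha3 segment is between 12.8% and 24.1% on day 10 and between 27.2% and 39.4% on day 14.

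*P4hb*, on chromosome 11 from 120560298 to 120573253, encodes the β subunit, which also forms disulfide bonds in many other secreted proteins. It measured 1061, 889.7 and 942 FPKM on day 10 and 692, 871 and 846 FPKM on day 14. The groups did not overlap, but the gap between them was narrow, and the log2 fold change was −0.27 ± 0.22 (limma adjusted p = 0.757), or −0.33 without day 14 replicate 2. The ratio of *P4hb* to the summed α FPKM was 2.09 ± 0.102 on day 10 and 1.87 ± 0.204 on day 14 (SD, n = 3 each), with overlapping samples.

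*Serpinh1*, on chromosome 7 from 99345376 to 99353239, encodes HSP47, which binds the triple helix in the ER and releases it in the Golgi. It was the highest member on both days, at 1474, 1289 and 1033 FPKM on day 10 and 814, 939 and 893 FPKM on day 14. All day 14 samples were lower than all day 10 samples. The mean was 1265 ± 222 on day 10 and 882 ± 63.0 FPKM on day 14 (SD, n = 3 each). The fit on the log2 scale gave a 1.42-fold lower level, or −0.51 ± 0.24 in log2 fold change (limma adjusted p = 0.527). It was −0.55 without day 14 replicate 2.

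*Fkbp10*, on chromosome 11 from 100415697 to 100424824, encodes the ER peptidyl-prolyl isomerase FKBP65. It measured 724, 576 and 475 FPKM on day 10 and 278, 490.2 and 295 FPKM on day 14. Day 14 replicate 2 lay within the day 10 samples, while replicates 1 and 3 lay far below them. The mean was 592 ± 125 on day 10 and 354 ± 118 FPKM on day 14 (SD, n = 3 each). The fit on the log2 scale gave a 1.70-fold lower level, and *Fkbp10* had the lowest log2 fold change of the members (−0.77 ± 0.27, limma adjusted p = 0.407). Without day 14 replicate 2 it was −1.03 (limma adjusted p = 0.178), the lowest such value of any member under the settings tried. Over the 14 settings that of *Fkbp10* ran up to 0.976. Its exons overlap those of *Nt5c3b* on the other strand, listed as *Nt5c3l* at 11.6 to 17.9 FPKM, and the strand used in counting is not given in the sources used here.

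The 2 members of the prolyl 3-hydroxylase complex showed small differences. *Crtap*, on chromosome 9 from 114375134 to 114390675, encodes the helper subunit and measured 296, 275 and 249 FPKM on day 10 and 228, 278 and 256 FPKM on day 14. The samples of the days were interleaved (log2 fold change −0.11 ± 0.17, limma adjusted p = 0.890). *Ppib*, on chromosome 9 from 66060222 to 66066623, encodes the isomerase of the complex and measured 657, 516 and 554 FPKM on day 10 and 454, 528 and 484 FPKM on day 14. Only day 14 replicate 2 exceeded a day 10 sample, and the log2 fold change was −0.23 ± 0.19 (limma adjusted p = 0.765). The log2 fold changes were −0.18 for *Crtap* and −0.29 for *Ppib* when day 14 replicate 2 was left out. *Snx22*, whose exons overlap *Ppib* on the other strand, was at most 1.00 FPKM.

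Of the propeptide genes, *Bmp1* lies on chromosome 14 from 70474558 to 70520234 and encodes the C-proteinase and its longer splice form, which a gene-level FPKM does not separate. It measured 344, 417 and 309.6 FPKM on day 10 and 335, 298 and 297 FPKM on day 14, with overlapping days (log2 fold change −0.19 ± 0.18, limma adjusted p = 0.794). *Pcolce*, on chromosome 5 from 137605103 to 137613784, measured 858, 933 and 754 FPKM on day 10 and 687, 702 and 733 FPKM on day 14. Its day 14 samples lay close together and below all day 10 samples, or −0.26 ± 0.20 in log2 fold change (limma adjusted p = 0.747). Leaving out day 14 replicate 2 gave −0.17 for *Bmp1* and −0.25 for *Pcolce*. *Pcolce* stood above *Bmp1* in every sample, and the ratio of their FPKM was 2.39 ± 0.134 on day 10 and 2.29 ± 0.219 on day 14 (SD, n = 3 each). *Fbxo24*, which shares exonic positions with *Pcolce*, was at most 0.448 FPKM.

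The clients of the pathway were measured in the same samples. *Col1a1* and *Col1a2*, the chains of type I collagen, together had 42826 ± 13855 FPKM on day 10 and 29034 ± 5787 FPKM on day 14 (SD, n = 3 each), with overlapping samples. *Col3a1*, the type III chain, had 5271, 6750 and 9676 FPKM on day 10 and 11392, 7900.1 and 15502 FPKM on day 14. The FPKM of *Col3a1* was thus lowest in day 10 replicate 1 and highest in day 14 replicate 3, as for *P4ha3*. None of the 6 procollagen chains compared (those 3 with *Col5a1*, *Col5a2* and *Col2a1*) had fully separated days or an unadjusted p under 0.05. When each member was expressed per 1000 FPKM of *Col1a1* and *Col1a2*, the days overlapped for all 10 members. *Serpinh1* was at 30.9 ± 7.03 on day 10 and 31.0 ± 4.89 on day 14 on this scale, and *P4ha1* at 3.24 ± 1.01 and 3.26 ± 0.180 (SD, n = 3 each). *P4ha3* was at 1.41, 1.39 and 3.86 on day 10 and 5.996, 3.17 and 7.09 on day 14, so that only day 10 replicate 3 exceeded a day 14 sample. *Fkbp10* was the only member with a lower mean on day 14 per unit of type I collagen, at 14.5 ± 3.64 and 12.03 ± 1.69 (SD, n = 3 each). These ratios are given without a test, and type I collagen itself was between 28453.5 and 56098.4 FPKM in the day 10 samples.

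**Figure D3:**
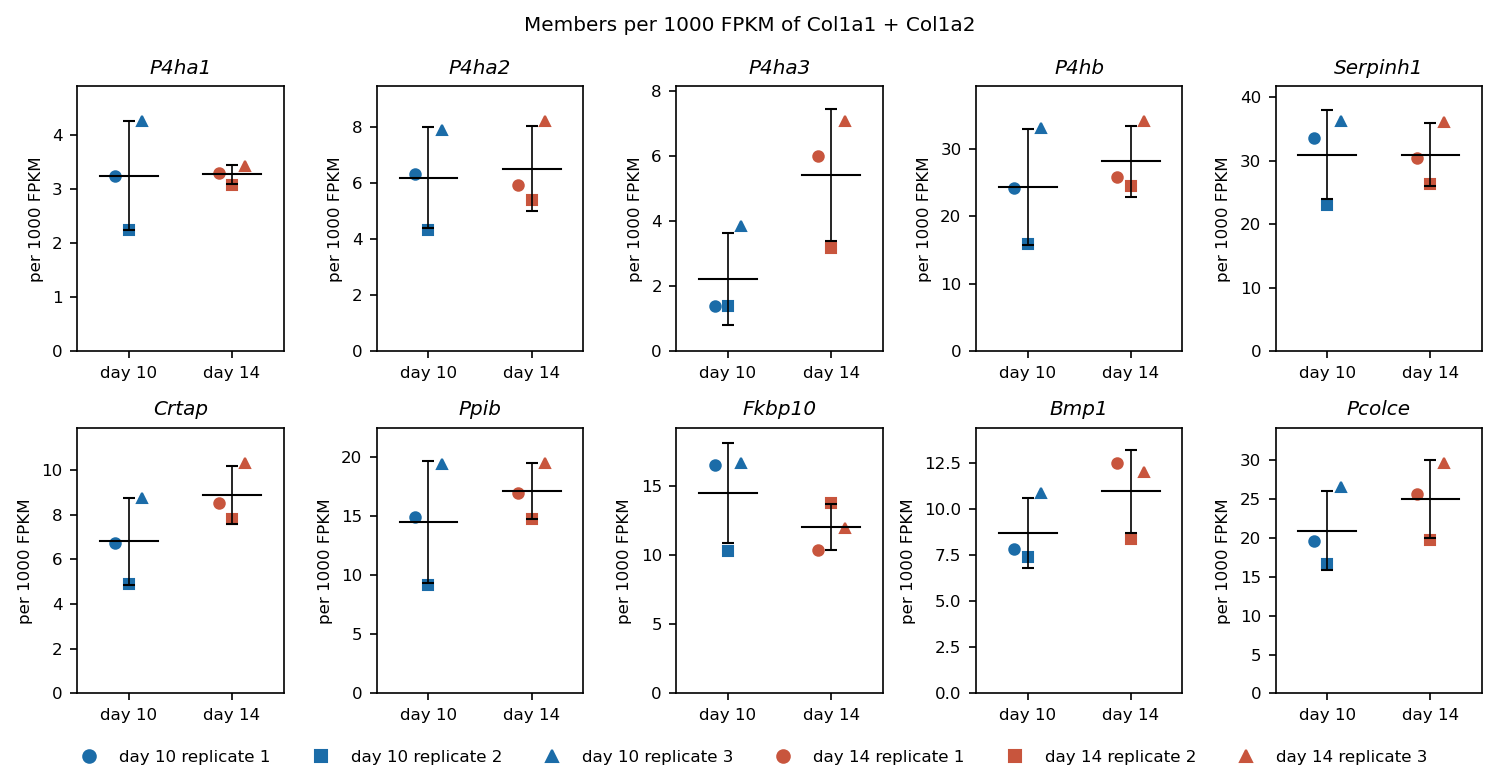
FPKM of each member per 1000 FPKM of Col1a1 and Col1a2 together (linear axis from 0) in the 3 day 10 samples (blue) and 3 day 14 samples (red), with marker shape for the replicate number, a line at the mean and bars of 1 SD. The days overlap in all 10 panels, and P4ha3 has the largest difference in means relative to its level, 2.22 on day 10 and 5.42 on day 14.

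A further 34 genes of collagen biosynthesis, listed by role, gave the surroundings of the members. All were listed and 33 were tested, with no adjusted p under 0.05 from limma. At an unadjusted p under 0.05, 6 were lower and 1 was higher on day 14, to be read against the shares of all genes tested given above. The median log2 fold change of the 33 was 0.01. Without day 14 replicate 2, 8 of the 33 were lower and 1 was higher at that threshold, against 5.92% and 6.91% of all genes tested, and none had an adjusted p under 0.05.

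The lower genes included the enzyme partner of *Crtap* and *Ppib*, and further genes of the prolyl 3-hydroxylase family. *P3h1*, the prolyl 3-hydroxylase itself (listed as *Lepre1*), was at 105 ± 25.6 FPKM on day 10 and 64.3 ± 12.4 FPKM on day 14 (SD, n = 3 each; log2 fold change −0.70 ± 0.22). *P3h4* (listed as *Leprel4*), which encodes a non-enzymatic relative of *Crtap*, was at 147 ± 38.8 FPKM on day 10 and 79.6 ± 18.9 FPKM on day 14 (log2 fold change −0.88 ± 0.24). In both genes every day 14 sample was below every day 10 sample. *P3h2* (listed as *Leprel1*) was at 14.1 ± 4.74 FPKM on day 10 and 6.27 ± 8.30 FPKM on day 14, with overlapping days. The remaining gene of the family, *P3h3* (listed as *Leprel2*), had a higher mean on day 14, also with overlapping days. It was at 101 ± 2.79 FPKM on day 10 and 113 ± 12.1 FPKM on day 14 (log2 fold change 0.15 ± 0.15). The adjusted p from limma was 0.360 for *P3h1*, 0.319 for *P3h4* and 0.463 for *P3h2*. Day 14 replicate 2 changed the size but not the direction of the *P3h2* difference. The log2 fold change was −2.02 with that sample and −3.13 without it (limma adjusted p = 0.0525). *P3h2* measured 1.29, 15.9 and 1.66 FPKM in day 14 replicates 1, 2 and 3, and the part of cell type in this was not tested. The ratio of *Crtap* to *P3h1*, taken after the values were seen, was 2.22, 2.76 and 2.997 on day 10 and 4.23, 3.57 and 4.18 on day 14, without overlap.

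*Creb3l1*, which encodes a membrane-bound transcription factor of the secretory pathway known to act on collagen genes in OBs, was at 143 ± 42.7 FPKM on day 10 and 72.3 ± 17.1 FPKM on day 14 (SD, n = 3 each; log2 fold change −0.98 ± 0.25, limma adjusted p = 0.309). *Fkbp11*, an isomerase of the same family as *Fkbp10*, was at 286 ± 65.8 FPKM on day 10 and 136 ± 43.2 FPKM on day 14 (log2 fold change −1.09 ± 0.26, limma adjusted p = 0.305). Both genes had fully separated days. Day 10 replicate 1 was the highest sample for *Creb3l1*, *Fkbp11*, *P3h1* and *P3h4*, as it was for *Serpinh1*, *P4ha1* and *Fkbp10*.

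The N-propeptide proteinases differed in direction, as the α subunits did. *Adamts2*, which encodes the main N-proteinase of type I procollagen, was at 150.1 ± 23.8 FPKM on day 10 and 261 ± 69.7 FPKM on day 14 (SD, n = 3 each; log2 fold change 0.77 ± 0.24, limma adjusted p = 0.360). *Adamts14*, a relative with the same activity, was at 12.4 ± 4.84 FPKM on day 10 and 5.40 ± 1.35 FPKM on day 14 (log2 fold change −1.12 ± 0.34, limma adjusted p = 0.359). *Adamts3*, the remaining relative, was at 1.89 ± 0.176 FPKM on day 10 and 1.37 ± 0.148 FPKM on day 14 (log2 fold change −0.44 ± 0.31). All 3 were fully separated by day, as were 6.67% of all genes tested downwards and 7.59% upwards. For *Adamts14* the gap was very narrow, with 6.80 FPKM in day 10 replicate 3 and 6.79 FPKM in day 14 replicate 3. *Adamts2* was lowest in day 10 replicate 1 and lowest within day 14 in replicate 2, as was *P4ha3*.

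The general chaperones and oxidoreductases of the ER had higher means on day 14. All 8 (*Hspa5*, *Hsp90b1*, *Pdia3*, *Pdia4*, *Pdia6*, *Calr*, *Canx* and *Ero1a*, listed as *Ero1l*) had a higher day 14 mean, overlapping days and no unadjusted p under 0.05, with a median log2 fold change of 0.15. That median was close to the 0.12 of the 549 highly expressed genes. Of the 19526 genes tested, 9085 had a log2 fold change above 0 and 16742 had overlapping days. *Hspa5*, which encodes the chaperone BiP, was the highest of the 34 genes, at 968 ± 163 FPKM on day 10 and 1253 ± 281 FPKM on day 14 (SD, n = 3 each; log2 fold change 0.36 ± 0.27). *Pdia3*, *Calr* and *Hsp90b1* had log2 fold changes of 0.13, 0.16 and 0.12. *Ppic*, a cyclophilin close to *Ppib*, was at 655 ± 80.4 and 667 ± 162 FPKM (log2 fold change 0.01 ± 0.24). Whether the 8 chaperones and the members differ in their change was not tested.

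**Figure D4:**
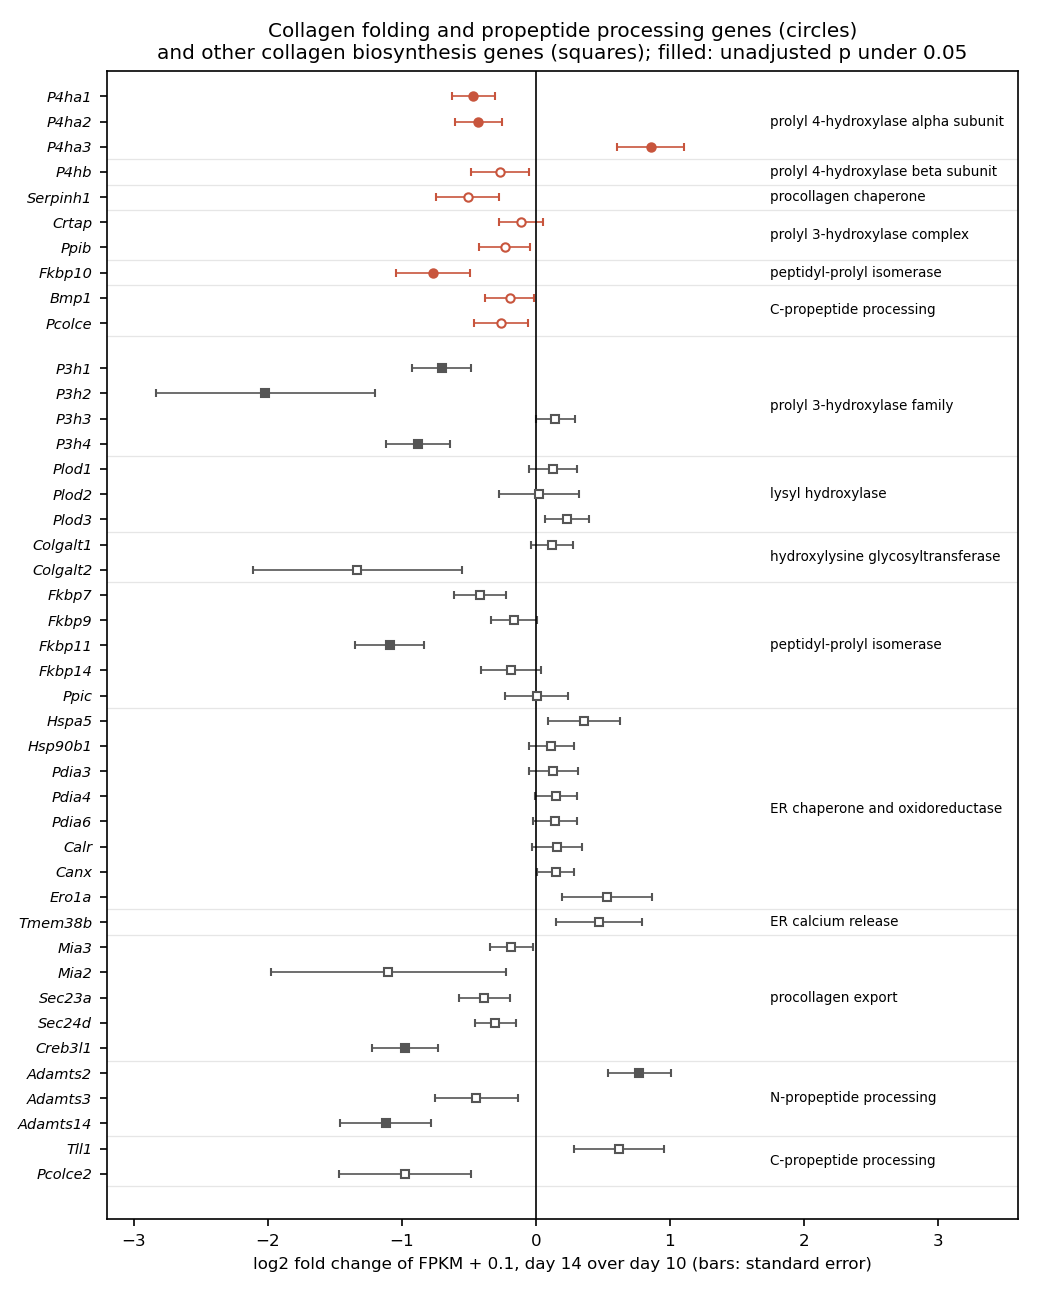
Log2 fold change of FPKM + 0.1 (day 14 over day 10; bars are the standard error from limma) for the 10 members (circles) and 33 further collagen biosynthesis genes (squares), grouped by role, with filled symbols for an unadjusted p under 0.05. Filled symbols to the right of 0 are P4ha3 (0.86) and Adamts2 (0.77), and the 8 ER chaperone and oxidoreductase genes are open symbols to the right of 0.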

How the data were processed

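Total RNA of sorted ECFP+ OBs was amplified with SMART-Seq and sequenced by the authors in 75-base single-end mode. Per the labels, reads were mapped to mm10 using SAMtools 0.1.19, Bowtie2 2.2.3 and TopHat2 2.0.13. The authors deposited FPKM per gene, computed with Cufflinks 2.2.1, in 1 file per sample. The annotation and the handling of multi-mapping reads are not given in the sources used here. In the file of day 14 replicate 2, 25 symbols had become dates and were restored by position. Titles place replicates 1, 2 and 3 of the later group on day 14, whereas free-text descriptions give days 14, 15 and 16, and titles were used.

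Log2(FPKM + 0.1) of the 19526 genes with a mean FPKM above 0.1 was compared by day with limma 3.58.1 in R 4.3.3 (eBayes with a mean-variance trend), with Benjamini-Hochberg adjustment over all genes tested. Each limma p sets the difference between the day means of these 6 samples against the spread within days, moderated by the variances of all genes tested. Depth was estimated from the read steps of genes with a single transcript (values no higher than 0.3 FPKM). The depths and a shared fragment length (225 bases) were those that put the most low values within 0.1 of whole reads. The share reached, 74.9% to 79.3%, is thus no separate check of the depth. Positions are from GENCODE vM21 and promoters from RefSeq. All members were named. Of the further genes, the 5 highest and those with an unadjusted p under 0.05 were named, besides genes needed for a count or to complete a family. Members and lists were chosen with earlier results of these data known.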

Additional observations from a re-analysis of the deposited data

How the results depend on the processing

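All 10 log2 fold changes kept their direction under 14 alternatives each (another pseudocount, filter, scaling or variance model, a replicate block, and each sample left out in turn), and no adjusted p from limma was under 0.05, the lowest being 0.178. The number of members with an unadjusted p under 0.05 was 4 (10% of all genes tested), and between 3 and 5 under other pseudocounts, filters and scalings (8.31% to 15.3%). It was 1 without the mean-variance trend (6.86%) and between 1 and 4 with each sample left out (4.86% to 13.7%). With upper quartile scaling the median log2 fold change of all genes moved by −0.107, and *P4ha3* was at 0.73 and *Fkbp10* at −0.90. Same-numbered samples deviated together with r = 0.058, −0.00584 and 0.0887, so the numbers were not taken to pair the samples. For day 10 replicates 1 and 3, but not 2, the best matching day 14 sample was still that of the same number. With a replicate block 3 members had an unadjusted p under 0.05, against 10.9% of all genes. Over the 3 same-numbered pairs, the difference in the *P4ha1* share was −5.97 percentage points and that of *P4ha3* 16.7 (two-sided exact test over signs, p = 0.25, the smallest that 3 pairs allow). With each sample left out, these differences kept their direction. With 3 samples a day, no exact test can pass 0.05.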
